A study of Mus musculus with 8 samples.

Results

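The Zfp genes described here are the mouse genes whose symbol is Zfp followed by a number and whose mean level over all 8 libraries was at least 10 CPM, a gene's count scaled to a fixed library total. Members were thus chosen by their symbol and by their mean CPM. The rule took 175 of 384 such symbols in a table of 26930 genes, and it used the level over both groups but not the difference between them. A level over both groups still lets a gene in through 1 group only: 17 of the 175 averaged under 10 CPM in untreated cells and 11 averaged under 10 CPM after romidepsin, and these are counted apart below. At the boundary, the members with the lowest means were Zfp799 at 10.1 CPM, Zfp623 at 10.3 CPM and Zfp719 at 10.6 CPM. Just outside it were Zfp945 at 9.96 CPM, Zfp955a at 9.93 CPM and Zfp324 at 9.90 CPM.

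The cells were myeloid-derived suppressor cells (MDSCs) grown from the bone marrow of C57BL/6 mice in GM-CSF and IL-6, each at 40 ng/ml, and moved on day 4 into medium conditioned by TRAMP-C1, a mouse prostate tumour line. The submitters call them senescent-like. One group of 4 libraries was left untreated and the other group of 4 received romidepsin, an inhibitor of class I histone deacetylases, at 0.5 µM for 6 h, with everything else shared. Nothing in the labels names separate mice or cultures, so a p-value here measures the spread between these libraries, which may be technical.

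Most mammalian Zfp genes encode C2H2 zinc fingers, small folds that hold a zinc ion and read short stretches of DNA, often many in a row. A large share also carry a KRAB box, a segment that binds Trim28 (KAP1), which brings in the histone methyltransferase Setdb1, HP1 proteins and deacetylase complexes and silences the DNA around the bound site, retroelements above all. Many KRAB genes lie in clusters of recent copies. The symbol Zfp also covers unrelated proteins: Zfp36, Zfp36l1 and Zfp36l2 have CCCH fingers that bind AU-rich elements in messenger RNA and hand the transcript to the CCR4-NOT deadenylase, a brake on cytokine messages in myeloid cells.

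A KRAB A box was found in the translated coding sequence of 74 members and not found in the other 101, of which 3 were the CCCH genes. Among the remaining 98, the pattern for C2H2 fingers matched all but Zfp330, Zfp503, Zfp703 and Zfp839. Members had a median of 9 C2H2 fingers with a range from 0 to 37. The median was 12 fingers with a KRAB box and 7 without. KRAB members were also the lower expressed class, with a median of 3.20 CPM per kb of exon in untreated cells, against 5.48 CPM per kb without the box. From here on, levels are CPM scaled by TMM, a normalisation that centres the bulk of the genes, and a gene is called when its adjusted p is under 0.05 in edgeR's quasi-likelihood test over 12852 genes.

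Total counts ran from 12996892 to 23176949 per library. The third romidepsin library stood apart: on the first principal component of all tested genes it lay at -1.17, between the untreated libraries, at -77.3 to -50.6, and the other romidepsin libraries, at 50.3 to 105. Its members followed. Among called members, the romidepsin library nearest to the untreated ones was the third in 58 of 71, the first in 8, the second in 4 and the fourth in 1. All 14 myeloid suppressor markers passed the count filter, Ly6c1 with means of only 2.58 CPM untreated and 2.42 CPM after romidepsin. The 14 summed to 9120 to 14400 CPM in untreated and to 1550 to 8240 CPM in romidepsin libraries. Of them 3 were called lower, where 16.2% of all tested genes were. B and plasma cell markers had 7 of 10 genes tested and 4 called lower, and summed to 91.1 to 316 CPM untreated and 24.6 to 122 CPM after romidepsin. The stromal markers, with 6 of 10 tested, none called by edgeR and none at an unadjusted p under 0.05, summed to 6.24 to 64.8 CPM and 9.64 to 184 CPM, and the library numbered 2 was the highest of each group. No listed marker in the table was at 0 in every library. The part of these cell types in the Zfp results was not tested, and in bulk RNA fewer cells of a type and less RNA per cell cannot be told apart.

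After romidepsin 26 of the 175 members were higher and 45 were lower, and 104 did not pass the test. Of all tested genes 36.5% were called, 20.3% higher and 16.2% lower. Among the 9071 tested genes that met the same level rule, 38.0% were called, 20.1% higher and 18% lower. The members' shares were 40.6% called, 14.9% higher and 25.7% lower. So the share of members called was near the background, and the counts lay toward lower in this scaling. With library size alone the counts lay toward higher, with 40 members higher and 26 lower. Of all tested genes 30.24% were then higher and 10.64% lower. With scaling to 20 housekeeping genes 35 members were higher and 24 lower, where 27.88% of all tested genes were higher and 9.26% lower. The count of higher members was 13 without untreated 3, 14 without romidepsin 1, 16 without untreated 2 or romidepsin 4 and 17 without romidepsin 2, and that of lower members 27 without romidepsin 4 and 29 without romidepsin 1. Without romidepsin 3 there were 29 higher and 52 lower, where 24.48% of all tested genes were higher and 23.42% lower. The library size and housekeeping scalings moved every gene. They raised the median log2 fold change of all tested genes from 0.01 to 0.30 and 0.24. With library size the share of higher calls rose from 55.7% to 74.0% among all called genes. Among called members it rose from 36.6% to 60.6%.

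A measure that holds the members against all genes in 1 fit is the median log2 fold change. It was -0.14 for the members, with an interquartile range of -0.54 to 0.26, against 0.01 for all tested genes. With library size alone the same medians were 0.16 for the members and 0.30 for all genes. The sum of all 175 members was 6030, 6550, 6550 and 7740 CPM in untreated libraries 1 to 4 and 4870, 5470, 5900 and 5340 CPM in romidepsin libraries 1 to 4. These groups did not overlap on the TMM scale. As plain shares of the library total the sums were 5800, 6010, 5480 and 6910 against 5800, 6510, 5790 and 5750 CPM, and the groups did overlap.

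**Figure D1:**
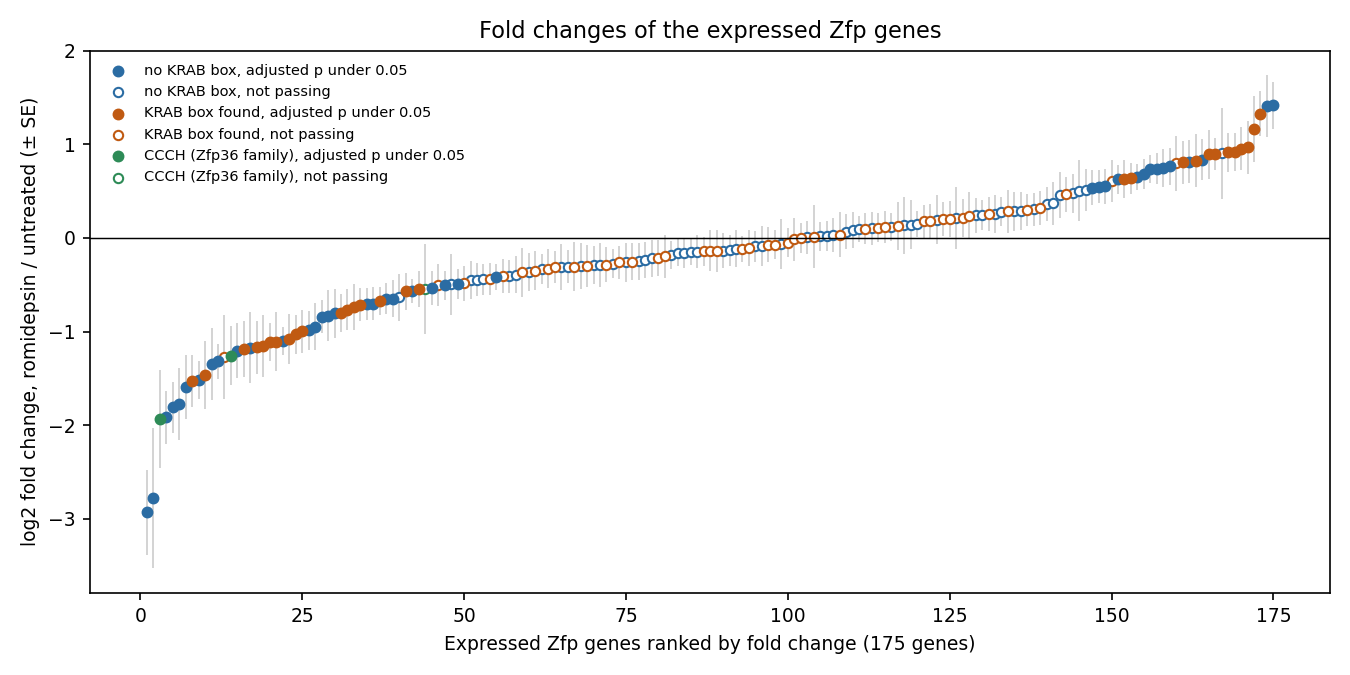
Log2 fold change (romidepsin over untreated, with its SE) of the 175 expressed Zfp genes, ranked from lowest to highest. Filled points passed an adjusted p of 0.05 and open points did not, and the colours mark genes with a KRAB box, genes without one and the CCCH genes. The low end reaches -2.94 and the high end 1.42.

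At least a 2-fold rise was called in 4 members and at least a 2-fold fall in 23, of which 11 averaged under 10 CPM after romidepsin and so met the level rule through untreated cells. Among the 147 members of at least 10 CPM in each group the counts were 3 and 12. Over all tested genes 12.5% passed that fold upward and 10.3% downward, and among genes at the same level 9.51% and 10.1%. Log2 fold changes of the 175 members ran from -2.94 to 1.42, and those of the 9071 genes of the same level from -5.41 to 7.24. Counting only whether the groups overlapped, 25 members had every romidepsin library above every untreated one and 47 had every one below, where 18.7% and 16.5% of all tested genes did so. Of the 147 members that averaged at least 10 CPM in each group, 16 were higher and 34 lower. Among the 17 that were under 10 CPM in untreated cells 10 were higher, and the 11 under 10 CPM after romidepsin were all lower; for each of these the rule itself favours that direction. A further 153 tested Zfp genes under the level rule had 22 higher and 32 lower.

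Members with and without a KRAB box both had more lower than higher calls in the TMM scaling. Of 74 KRAB members 12 were higher, 17 lower and 45 did not pass, with a median log2 fold change of -0.11. Of the 101 without a KRAB box 14 were higher, 28 lower and 59 did not pass, with a median of -0.16. The share called in either direction was 39.2% with the box and 41.6% without. Both lay near the 38.0% of the 9071 tested genes that met the same level rule. The lowest folds belonged to genes without the box: their range began at -2.94 and that of the KRAB members at -1.53. Those ends were Zfp467 and Zfp111, which both averaged under 10 CPM after romidepsin and entered through untreated cells. Among the 147 members of at least 10 CPM in each group the lowest was -2.78, in Zfp710, which has no KRAB box. The difference between the classes was not tested, and the classes also differ in level. Their counts include members under 10 CPM in a group, for which the level rule itself favours the called direction. Among the higher KRAB members Zfp719, Zfp81, Zfp28, Zfp707, Zfp760 and Zfp955b were so in untreated cells. Among the lower ones Zfp111, Zfp52, Zfp994 and Zfp729b were so after romidepsin. The classes were not compared with such members left out. With library size alone, which raised the fold changes of all genes, 18 KRAB members were higher and 10 lower, and of the others 22 were higher and 16 lower. Of all tested genes 30.24% were then higher and 10.64% lower. The medians were then 0.19 with the box and 0.14 without, against 0.30 for all tested genes. Leaving out single libraries moved the counts too, and the KRAB count of higher members was 6 without untreated 3 or romidepsin 4.

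**Figure D2:**
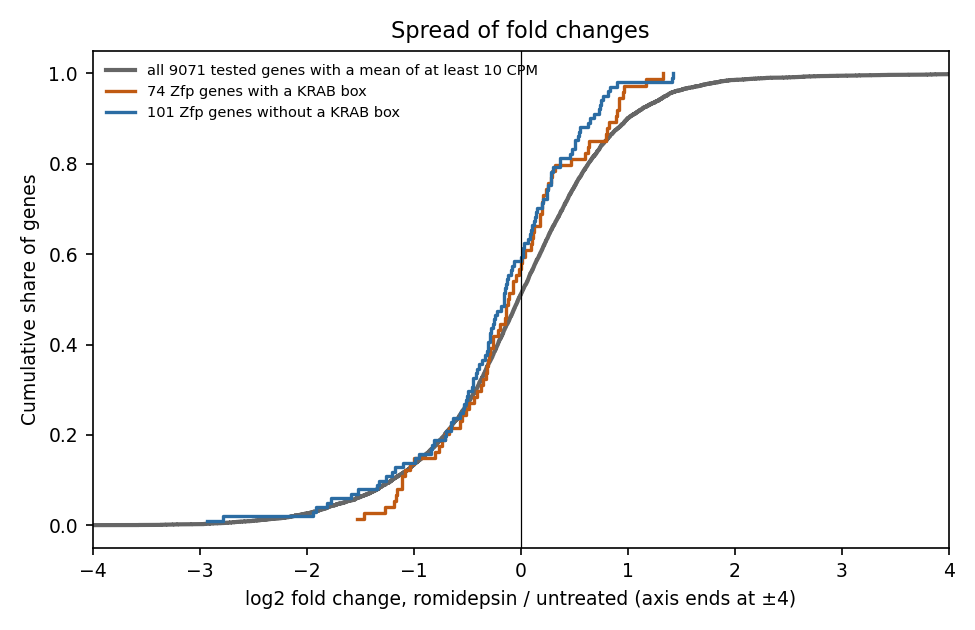
Cumulative share of genes (0 to 1) at or below each log2 fold change (romidepsin over untreated; axis limited to ±4), for 74 members with a KRAB box, 101 without and the 9071 tested genes of at least 10 CPM. The Zfp curves reach 1 at 1.33 and 1.42, while the curve of all genes goes on to the right.

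Among the genes without a KRAB box, the deepest fall was that of Zfp467, a C2H2 factor known from the choice between fat and bone in marrow stroma (GRCm38 chr6:48427697-48445825, minus strand). Untreated libraries 1 to 4 had 29.3, 36.4, 38.1 and 31.7 CPM, and romidepsin libraries had 2.35, 2.10, 9.40 and 3.88 CPM. The groups lay far apart, and the third romidepsin library was the highest of its group. Its means were 33.9 ± 4.06 and 4.43 ± 3.40 CPM (SD, n = 4 each), a log2 fold change of -2.94 ± 0.46 (SE; edgeR adjusted p = 0.00264).

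Zfp710, a gene with 11 C2H2 fingers (chr7:80024814-80094173, plus strand), had the highest level per kb of transcript among the C2H2 members that fell. It stood at 232, 220, 257 and 259 CPM untreated and at 8.89, 6.54, 91.9 and 33.5 CPM after romidepsin. Untreated libraries were tight while romidepsin libraries spread widely, with the second lowest and the third highest. This amounts to a log2 fold change of -2.78 ± 0.75 (edgeR adjusted p = 0.0201); without romidepsin library 4 the adjusted p was 0.0549 and with no count filter 0.0968, and neither passed.

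Zfp518a (chr19:40894705-40917947, plus strand), which contains 5 fingers, fell from 16.1, 16.4, 23.3 and 25.7 CPM to 5.79, 5.14, 8.21 and 4.08 CPM. This is a log2 fold change of -1.81 ± 0.28 (edgeR adjusted p = 0.0025). Zfp362 fell from a mean of 27.0 ± 2.47 to 7.89 ± 4.89 CPM (log2 -1.78, edgeR adjusted p = 0.00916). Both kept their calls in every alternative fit run. On chromosome 18, Zfp236, with 31 fingers, fell from 43.6 ± 15.9 to 11.6 ± 3.08 CPM (log2 -1.92, edgeR adjusted p = 0.00232). Zfp407, known as a cofactor at targets of the fat-cell receptor PPARγ, fell from 21.1 ± 9.64 to 7.02 ± 1.86 CPM (log2 -1.59, edgeR adjusted p = 0.00872). Both had their highest untreated value in library 4, at 67.2 and 34.8 CPM. Of the 7 members on this chromosome 4 were lower and 3 did not pass, where 25.7% of all members and 16.2% of all tested genes were lower. Of those calls, that of Zfp24 was kept in only 7 of 17 alternative fits. Whether the chromosome played a part was not tested.

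Zfp219, a partner of Sox9 in cartilage, had 54.5, 68.9, 55.8 and 44.7 CPM untreated and 12.8, 10.7, 39.4 and 25.1 CPM after romidepsin. The groups did not overlap, and the log2 fold change was -1.35 ± 0.39 (edgeR adjusted p = 0.0252). That call ended without any 1 of 4 libraries: romidepsin 1 (adjusted p = 0.061), untreated 2 (0.0644), untreated 3 (0.0565) or romidepsin 4 (0.0538). Arhgef40 and Tmem253 overlap it on the opposite strand, and the counting's use of strand is not given in the sources used here, so its reads cannot be fully told apart from theirs. Zfp207 (BuGZ), which loads Bub3 onto kinetochores, fell from 198, 174, 178 and 195 CPM to 107, 88.4, 139 and 120 CPM. Its log2 fold change was -0.71 ± 0.17 (edgeR adjusted p = 0.0138), and it did not pass at -0.43 with library size alone (0.0534) or at -0.48 with housekeeping scaling (0.0625).

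Zfp91, a ubiquitin ligase of the non-canonical NF-κB pathway, stood at 93.9, 93.6, 104 and 109 CPM untreated and at 65.3, 59.2, 85.4 and 72.1 CPM after romidepsin. A log2 fold change of -0.51 ± 0.15 passed narrowly (edgeR adjusted p = 0.0312). It was -0.22 with library size alone (adjusted p = 0.222) and -0.28 with housekeeping scaling (0.241), it did not pass with no count filter (0.0776), and leaving out untreated 2, 3 or 4 or romidepsin 1, 2 or 4 gave adjusted p from 0.0521 to 0.0885. It shares its strand with Cntf, which lies inside it.

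Several widely studied C2H2 factors did not pass. Zfp148 (ZBP-89), which binds GC-rich promoters, averaged 57 ± 15.8 and 41.7 ± 4.02 CPM (log2 -0.45, edgeR adjusted p = 0.105). Zfp217, a subunit of CoREST-type corepressor complexes, averaged 146 ± 24.9 and 118 ± 16.7 CPM (log2 -0.31, edgeR adjusted p = 0.193). Zfp143, a promoter-bound factor also found at chromatin loops, averaged 28.6 ± 4.07 and 25.8 ± 3.95 CPM (log2 -0.15, edgeR adjusted p = 0.527). Each of these had overlapping groups. Zfp281, a GC-box factor of pluripotent cells, averaged 52.2 ± 9.94 and 64.5 ± 5.66 CPM with a log2 fold change of 0.30 (edgeR adjusted p = 0.183), and passed with library size alone at 0.61 (0.0152). Zfp106, an RNA-binding protein needed by motor neurons, averaged 277 ± 106 and 306 ± 33.3 CPM (log2 0.14, edgeR adjusted p = 0.685).

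The CCCH genes were the most abundant members per length of transcript. In untreated cells Zfp36l1 had 123 CPM per kb, Zfp36l2 113 and Zfp36 75.2 CPM per kb, followed by Zfp385a at 43.5 and Zfp710 at 34.9. Zfp36l2 (chr17:84183931-84187947, minus strand) had 318, 311, 386 and 582 CPM untreated and 34.1, 61.2, 219 and 103 CPM after romidepsin. No romidepsin library reached the lowest untreated one. On the log2 scale the change was -1.94 ± 0.52 (edgeR adjusted p = 0.0204). The adjusted p was 0.0502 without untreated 4, 0.0516 without romidepsin 2, 0.0548 without romidepsin 4 and 0.0622 with no count filter.

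Zfp36l1 (chr12:80107754-80113013, minus strand) had 252, 414, 401 and 403 CPM untreated and 82.5, 152, 234 and 144 CPM after romidepsin. The groups came close, at 252 and 234 CPM, but did not overlap. On that scale Zfp36l1 changed by -1.26 ± 0.32 (edgeR adjusted p = 0.0151), and it passed in every alternative fit. Zfp36, tristetraprolin itself (chr7:28376784-28380253, minus strand), had 175, 439, 237 and 192 CPM untreated and 68.7, 350, 165 and 134 CPM after romidepsin. Here the groups overlapped widely, while each romidepsin library was lower than the untreated one of its number and the libraries numbered 2 were the highest of both groups. The log2 fold change was -0.54 ± 0.48 (edgeR adjusted p = 0.389); with the replicate number as a block it was -0.68 (adjusted p = 0.0425). Together the 3 genes summed to 745, 1160, 1020 and 1180 CPM untreated and to 185, 563, 618 and 381 CPM after romidepsin.

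Of 22 tested genes of the CCR4-NOT and mRNA decay machinery 3 were higher and 7 lower. Pan3 and Pan2, the deadenylase that trims long poly(A) tails, had log2 fold changes of -1.36 (edgeR adjusted p = 0.0027) and -1.09 (0.0052). Ddx6, a helicase of decay and translational repression, changed by -1.09 (edgeR adjusted p = 0.015). The CCR4-NOT subunits Cnot10 and Cnot11 were higher by 1.24 (edgeR adjusted p = 0.0151) and 0.74 (0.00765), and the deadenylase Cnot6 by 0.42 (0.0418). The CCR4-NOT genes Cnot8 and Cnot6l were lower, with changes of -0.53 (edgeR adjusted p = 0.0149) and -0.49 (0.039). With library size alone neither passed, at 0.291 and 0.338. Cnot6l also did not pass in most fits that left out a library, at 0.0632 to 0.108. Over all tested genes 20.3% were higher and 16.2% lower. With library size alone the list had 6 higher and 3 lower; its median log2 fold change was -0.34 against 0.01 for all genes with TMM, and -0.026 against 0.30 with library size. With the replicate block it had 2 higher and 4 lower. Pan2, Pan3, Cnot10 and Cnot11 passed in each alternative fit, Ddx6 did not with housekeeping scaling (0.0543), and the call of Cnot6 ended in most fits that left out a library, at 0.0595 to 0.113, and with the replicate block, at 0.0667. Leaving out a library moved the list's counts to between 2 and 4 higher and between 4 and 6 lower, with 4 of each without untreated 4. Mapkapk2, the kinase that inactivates tristetraprolin, was at 0.13 and did not pass (edgeR adjusted p = 0.657).

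**Figure D3:**
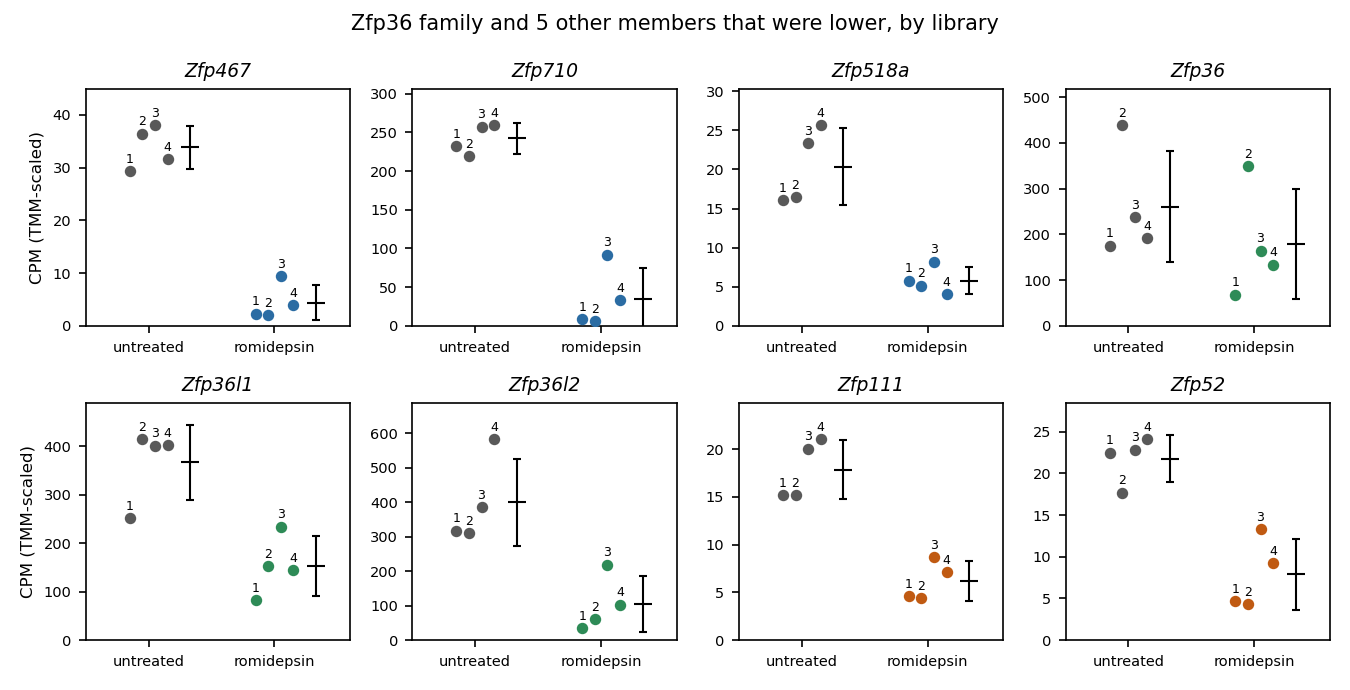
Level in each library (TMM-scaled CPM, numbered points) with mean ± SD of the 4 libraries of each group, for the CCCH genes Zfp36, Zfp36l1 and Zfp36l2, for Zfp467, Zfp710 and Zfp518a without a KRAB box, and for the KRAB genes Zfp111 and Zfp52. The lower bar of Zfp710 ends at the axis; the third romidepsin library is the highest of its group in all but Zfp36.

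Among genes without a KRAB box that rose, Zfp346 (JAZ; chr13:55105311-55134825, plus strand), which binds double-stranded RNA, led. It stood at 18.4, 15.9, 15.9 and 20.4 CPM untreated and at 54.7, 66.3, 30 and 38 CPM after romidepsin. All romidepsin libraries were above all untreated ones, with the third the lowest. The log2 fold change was 1.42 ± 0.25 (edgeR adjusted p = 0.00435), with the call kept in every alternative fit.

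Zfp664 (chr5:124862691-124902693, plus strand), with 9 fingers, had 27.6, 22.6, 27.2 and 57.9 CPM untreated and 107, 114, 61.6 and 77.2 CPM after romidepsin. Untreated library 4 and romidepsin library 3 came within a few CPM of each other. Its log2 fold change was 1.41 ± 0.33 (edgeR adjusted p = 0.0117). Zfp385a (HZF), an RNA-binding protein and p53 cofactor, rose from 89.0, 115, 117 and 117 CPM to 171, 184, 154 and 166 CPM. It was the most abundant member per length that rose, by a log2 fold change of 0.63 ± 0.15 (edgeR adjusted p = 0.0141; 0.0514 with no count filter).

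Stretches just upstream of RefSeq transcript starts are given for 3 lower and 3 higher called members without a KRAB box. Each had a stretch clear of annotated exons. The choice did not follow fold change alone: Zfp36l2, Zfp236, Zfp518a, Zfp362 and Zfp407 fell more than Zfp628 and are not shown. Likewise Zfp664 rose more than Zfp672 and Zfp691 and is not shown. The exon condition may not be the only ground of the choice, so these stretches do not stand for the called members. The stretches are given because the shares of promoters with a GC box in higher and lower members, given next, were unequal. They come from RefSeq on GRCm38.p6, 120 bases each, 5′ to 3′ in the direction of the gene, and capitals mark GC boxes (GGGCGG, or CCGCCC where it lies on the other strand), the element read by Sp1-type factors. The stretch of Zfp467 precedes a start inside the GENCODE gene given above and not its outermost one. Zfp467, Zfp710 and Zfp628 were lower, and Zfp346, Zfp672 and Zfp691 higher.
Zfp467, chr6:48445091-48445210, minus strand: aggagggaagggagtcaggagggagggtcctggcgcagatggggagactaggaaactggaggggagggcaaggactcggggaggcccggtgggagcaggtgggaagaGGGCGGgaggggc
Zfp710, chr7:80024694-80024813, plus strand: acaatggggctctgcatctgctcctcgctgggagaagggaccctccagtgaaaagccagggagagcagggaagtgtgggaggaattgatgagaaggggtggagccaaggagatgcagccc
Zfp628, chr7:4915097-4915216, plus strand: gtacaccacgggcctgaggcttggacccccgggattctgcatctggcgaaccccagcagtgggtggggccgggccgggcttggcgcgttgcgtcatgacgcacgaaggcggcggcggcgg
Zfp346, chr13:55105189-55105308, plus strand: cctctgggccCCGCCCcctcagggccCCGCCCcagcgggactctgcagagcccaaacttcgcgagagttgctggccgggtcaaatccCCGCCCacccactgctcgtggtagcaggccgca
Zfp672, chr11:58330340-58330459, minus strand: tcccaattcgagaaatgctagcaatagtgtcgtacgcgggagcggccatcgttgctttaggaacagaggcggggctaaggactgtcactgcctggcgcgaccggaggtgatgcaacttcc
Zfp691, chr4:119174196-119174315, minus strand: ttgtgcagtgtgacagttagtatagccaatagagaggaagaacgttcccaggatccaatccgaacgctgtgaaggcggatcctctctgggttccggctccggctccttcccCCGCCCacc
Among them Zfp346 shows 3 GC boxes in this stretch, Zfp467 and Zfp691 show 1 each, and Zfp710, Zfp628 and Zfp672 show none. Zfp628 fell from 18.6 ± 1.98 to 6.49 ± 1.16 CPM (log2 -1.52, edgeR adjusted p = 0.00177). Zfp672 rose from 12.8 ± 2.70 to 22.5 ± 5.00 CPM (log2 0.81, edgeR adjusted p = 0.0237), and Zfp691 from 10.3 ± 1.99 to 17.5 ± 1.73 CPM (log2 0.77, edgeR adjusted p = 0.0176). These 3 genes were chosen for their sequences after their values were seen. The call of Zfp672 ended without romidepsin 1 or 2 or untreated 2 or 3 (adjusted p 0.0632 to 0.0704), and that of Zfp691 without romidepsin 1 (0.0535) or untreated 3 (0.0517).

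Promoter windows from 250 bases before to 50 after the start were found for 143 of the 175 members, 179 windows in all. A GC box was in 35.7% of the 32841 RefSeq windows of all genes and in 55.3% of the members' windows. The share was 75.0% in called higher members (24 of 32 windows), 41.9% in called lower members (18 of 43) and 54.8% in those that did not pass. The gap lay in the genes without a KRAB box, with 85.7% (18 of 21) of windows of higher members and 39.3% (11 of 28) of lower ones. With a KRAB box the shares were 54.5% (6 of 11) and 46.7% (7 of 15). Counted by gene, a GC box was in any window of 13 of 13 higher and 9 of 21 lower members without a KRAB box. With a KRAB box these were 6 of 10 and 7 of 14 genes. Called or not, 62.3% of windows of members without a KRAB box held a GC box, and 45.2% of those with one. Windows of higher members without the box also held more CpG than those of lower ones, with means of 26.57 and 21.25. Their G and C content was 65.8% and 61.1%. The part of base composition in the GC box shares was not tested. KRAB promoters held fewer CpG, with a mean of 13.8 per window against 23.6 without the box and 12.4 over all windows. Of the other motifs searched on both strands, CCAAT was in 45.8% of the members' windows and 37.4% of all, and the ETS core CCGGAAG in 19.6% and 8.86%. The CRE TGACGTCA was in 3.91% and 1.79%, the E-box CACGTG in 5.59% and 7.15%, and the palindromic NRF1 motif in 2.79% and 0.971%. In windows of called higher and called lower members, CCAAT was in 56.2% and 41.9% and the ETS core in 15.6% and 23.3%. The CRE was in 6.25% and 2.33% of these, the E-box in 0% and 4.65% and the NRF1 motif in 3.12% and 0%. Windows of 1 gene can overlap, the shares were not tested, and 6 motifs were looked at.

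Among the KRAB members Zfp111 (chr7:24193947-24211443, minus strand) fell most. It had 15.2, 15.2, 20.1 and 21 CPM untreated and 4.59, 4.38, 8.67 and 7.12 CPM after romidepsin. The groups did not overlap, and the log2 fold change was -1.53 ± 0.28 (edgeR adjusted p = 0.00447). Zfp110 (Nrif), which binds the neurotrophin receptor p75, fell from 45.9, 52.3, 57.9 and 58.4 CPM to 19.6, 21.3, 35 and 23.2 CPM. That gave a log2 fold change of -1.11 ± 0.21 (edgeR adjusted p = 0.00504). Zfp84 fell from a mean of 21.9 ± 5.65 to 11.0 ± 1.86 CPM (log2 -1.0, edgeR adjusted p = 0.0113). All 3 kept their calls in each alternative fit.

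Zfp445, which keeps DNA methylation at imprinted genes, had one of the highest levels per kb among KRAB members, 16.7 CPM per kb, behind Zfp869 at 19.7. It stood at 115, 109, 117 and 153 CPM untreated and 69.9, 69.0, 95.6 and 67.7 CPM after romidepsin. The groups did not overlap. Its log2 fold change was -0.71 ± 0.18 (edgeR adjusted p = 0.0154); it was -0.42 with library size alone (0.0659), -0.49 with housekeeping scaling (0.0976) and -0.66 without romidepsin 4 (0.0507), none of which passed. Zfp869 fell from 31.2 ± 2.75 to 19.6 ± 1.77 CPM, a log2 fold change of -0.67 (edgeR adjusted p = 0.00964). It was one of the tightest members in both groups, but changed by -0.37 with library size alone (0.148) and -0.44 with housekeeping scaling (0.0739).

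Zfp251 (chr15:76851609-76871435, minus strand) had the highest fold change of the members classed as KRAB, with 16 of 21 pattern positions; with 18 positions required it would not be in the class, and Zfp719 would lead. Untreated libraries had 8.23, 12.4, 12.5 and 16.6 CPM and romidepsin libraries 34.2, 37.0, 24.5 and 29.5 CPM. Its groups stood clear of each other, and the log2 fold change was 1.33 ± 0.24 (edgeR adjusted p = 0.00447). Zfp760 rose from 10.5, 9.0, 9.04 and 10.4 CPM to 16.7, 16.9, 19.9 and 19.3 CPM. Here the third romidepsin library was the highest of its group. The log2 fold change was 0.90 ± 0.17 (edgeR adjusted p = 0.00538). Zfp28 rose by 0.92 (7.50 ± 1.25 to 14.2 ± 1.57 CPM, edgeR adjusted p = 0.00956), and Zfp707 by 0.95 (8.80 ± 1.54 to 17 ± 3.70 CPM, 0.0132). Like Zfp251, they kept their calls in each alternative fit.

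A pair of KRAB genes rose with less support. Zfp719 had 10.3, 2.89, 4.68 and 6.82 CPM untreated and 13.7, 14.1, 12.6 and 15.3 CPM after romidepsin, a log2 fold change of 1.17 ± 0.35 (edgeR adjusted p = 0.0304). Leaving out romidepsin 1, 2 or 4 or untreated 2, 3 or 4 gave adjusted p from 0.0506 to 0.0839. Zfp81 had 9.19, 6.94, 9.62 and 10.5 CPM untreated and 23.1, 22.2, 10.7 and 15 CPM after romidepsin, so that the third romidepsin library lay barely above the highest untreated one. Its log2 fold change was 0.97 ± 0.28 (edgeR adjusted p = 0.0253), and leaving out romidepsin 1 or 2 or untreated 2 or 3 gave adjusted p from 0.0582 to 0.0747. Before TMM scaling Zfp719 averaged under 10 CPM in untreated cells, as did Zfp81, Zfp28, Zfp707, Zfp760, Zfp955b, Zfp691 and Zfp287, so these entered the set through the group in which they were high. In the same way Zfp467, Zfp518a, Zfp362, Zfp407, Zfp628, Zfp111, Zfp52, Zfp994 and Zfp729b averaged under 10 CPM after romidepsin and entered through untreated cells.

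Of the KRAB members that did not pass, Zfp871 and Zfp120 had the highest mean CPM. Zfp871 averaged 79.3 ± 14.1 and 76.7 ± 6.62 CPM (log2 -0.05, edgeR adjusted p = 0.825), and the sign turned with library size alone, at 0.26. Zfp120 averaged 53.8 ± 3.61 and 37.8 ± 12.5 CPM (log2 -0.51, edgeR adjusted p = 0.101), with 31.6, 25.7, 54.5 and 39.5 CPM in the romidepsin libraries. Romidepsin library 3 alone lay within the untreated range; without that library the adjusted p was 0.00913.

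**Figure D4:**
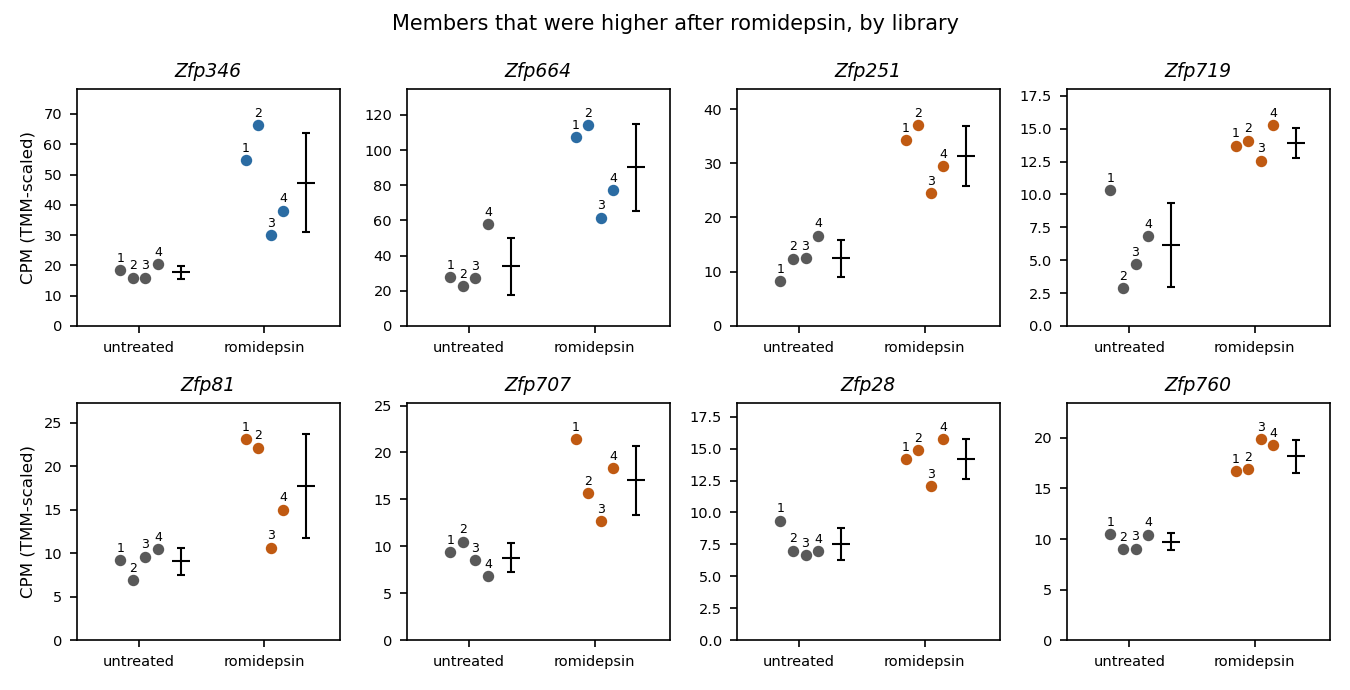
Level in each library (TMM-scaled CPM, numbered points) with mean ± SD of the 4 libraries of each group, for 8 members that were higher: Zfp346 and Zfp664 without a KRAB box and Zfp251, Zfp719, Zfp81, Zfp707, Zfp28 and Zfp760 with one. No groups overlap, and the third romidepsin library is the lowest of its group in 7 of them, Zfp760 being the exception.

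The corepressor genes through which KRAB proteins act were called at about the share of all genes. Of 27 tested genes of the KRAB corepressor and heterochromatin list 3 were higher and 6 lower, where 36.5% of all tested genes were called, and the median log2 fold change was 0.10. Trim28 averaged 136 ± 25 and 173 ± 30 CPM (log2 0.35, edgeR adjusted p = 0.185), and Setdb1 70.8 ± 10.1 and 75.8 ± 5.28 CPM (log2 0.10, edgeR adjusted p = 0.614). Hdac1, a target of romidepsin, rose from 60.7 ± 5.23 to 118 ± 25.6 CPM (log2 0.96, edgeR adjusted p = 0.00512). Hdac2 was at 0.50 and did not pass (edgeR adjusted p = 0.0632). Cbx5 (HP1α) rose by 0.76 (edgeR adjusted p = 0.0442) and Trim24 by 0.78 (0.0132). The remodeller Chd3 of the NuRD complex changed by -1.89 (edgeR adjusted p = 0.0121), the histone chaperone Daxx by -1.74 (0.0253) and the DNA methyltransferase Dnmt3a by -1.60 (0.0148). The remaining lower genes, Morc3, Ehmt2 and Fam208a, had smaller adjusted p. They changed by -1.53 (edgeR adjusted p = 0.00377), -0.85 (0.00629) and -0.73 (0.00884). With library size alone this list had 8 higher and 5 lower, and without romidepsin 3 it had 7 higher and 8 lower. Hdac1, Trim24, Chd3, Dnmt3a, Morc3 and Ehmt2 passed in each alternative fit. Fam208a did not with library size alone (edgeR adjusted p = 0.0752) or housekeeping scaling (0.0592). Cbx5 did not pass without romidepsin 1, 2 or 4 or untreated 1, 2 or 3 (0.0716 to 0.118), nor Daxx without romidepsin 1, 2 or 4 or untreated 2, 3 or 4 (0.052 to 0.0678).

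Near-identical copies limit some members. Over windows of 75 bases of transcript, 5 members shared at least 20% with another gene and 32 at least 1%. Zfp955b shared 22.2% of its windows, mainly with Zfp955a, and rose from 7.63 ± 0.985 to 14.4 ± 2.43 CPM (log2 0.92, edgeR adjusted p = 0.0111). Zfp729b shared 38.8%, mainly with the overlapping model Gm49345, and fell from 15.9 ± 2.89 to 7.77 ± 1.06 CPM (log2 -1.03, edgeR adjusted p = 0.00719). Zfp984 shared 40.9%, mainly with Gm13212; it had 22.6, 29.2, 36.7 and 15 CPM untreated and 6.48, 6.80, 22 and 7.57 CPM after romidepsin. Its groups overlapped only through the third romidepsin and the fourth untreated library. The log2 fold change was -1.27 ± 0.45 (edgeR adjusted p = 0.0511), with an adjusted p of 0.00742 with the replicate block and 0.00166 without romidepsin 3. How reads that fit several copies were counted is not given in the sources used here, so these levels are uncertain. Over all members 13 overlap another gene on the same strand and 51 on the opposite strand. Of the 45 lower members 10 do so on the same strand and 17 on the opposite one, and of the 26 higher members none and 7.

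Members of both directions lay side by side in the genome. Chromosome 7 held 37 members, of which 3 were higher and 9 lower, and chromosome 17 held 20, of which 5 were higher and 4 lower. Taking runs of at least 3 members with gaps of up to 500 kb, 13 clusters held 63 members, 44 of them with a KRAB box. In these 7 members were higher and 17 lower, and 4 clusters held both directions. Of all 175 members 14.9% were higher and 25.7% lower, and of all tested genes 20.3% and 16.2%. On GRCm38 chr17:21008903-22456689, 9 KRAB genes lay side by side, of which Zfp760 rose while Zfp52 and Zfp994 fell, by -1.47 and -1.16 on the log2 scale. The call of Zfp994 (edgeR adjusted p = 0.0247) ended with housekeeping scaling (0.0611) and without romidepsin 1, 2 or 4 or untreated 3 or 4, at 0.052 to 0.0697. In the next one, chr17:32765496-33631779, Zfp955b and Zfp81 rose and Zfp414 fell (log2 -0.95; without romidepsin 1 or untreated 2 its adjusted p was 0.0526 and 0.0519).

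At chr6:47835661-48445825 Zfp398 rose by 0.83 while Zfp282, Zfp746 and Zfp467 fell, Zfp282 by -1.08 and Zfp746 by -0.57 on the log2 scale. The calls of Zfp398 (edgeR adjusted p = 0.0464) and Zfp746 (0.0488) lay close to the threshold: neither passed without untreated 1, 2 or 3 or romidepsin 1, 2 or 4, at 0.0723 to 0.115 and 0.0596 to 0.125. Neither passed with no count filter, at 0.0578 and 0.084. Zfp746 also did not pass with library size alone (edgeR adjusted p = 0.264) or housekeeping scaling (0.261). At chr13:67471513-67729173 Zfp729b, Zfp729a and Zfp65 were lower and none of its 6 KRAB members higher. Its members Zfp729a and Zfp729b are partial copies and both overlap Gm49345, so their values are not fully separate. Zfp65 (log2 -0.77, edgeR adjusted p = 0.024) did not pass without untreated 3 or 4 or romidepsin 1, 2 or 4, at 0.0519 to 0.0738. Nor did it pass with library size alone (edgeR adjusted p = 0.105) or housekeeping scaling (0.122).

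**Figure D5:**
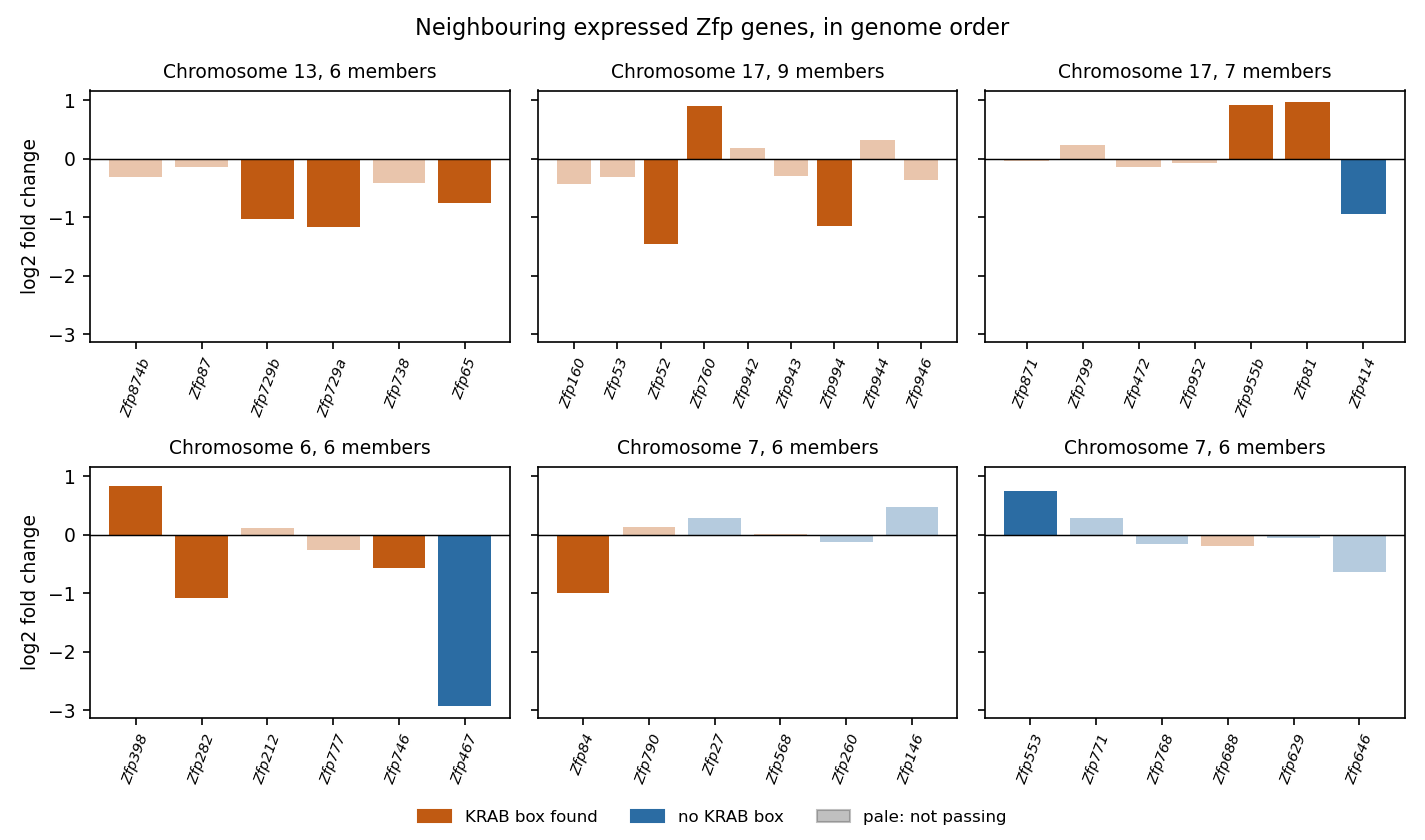
Log2 fold change (romidepsin over untreated) of neighbouring members in genome order, for the 6 clusters with at least 6 members; orange bars have a KRAB box, blue bars do not, and pale bars did not pass. Genes that passed in both directions stand in 3 of them, and the chromosome 13 cluster has bars below 0 only.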

How the data were processed

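RNA enriched for poly(A) from 4 untreated and 4 romidepsin-treated samples was sequenced on a NextSeq 500. The values used are raw counts per gene, deposited by the authors as 1 table. The submitters' processing notes name GRCm38 (mm10), the aligner STAR 2.5.2a, FastQC and DESeq2. Which tool counted the reads, on which annotation and with which strand setting is not given.

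Counts were tested with edgeR 4.0.16 in R 4.3.3 (filterByExpr, TMM, robust quasi-likelihood fit on group, two-sided F test, Benjamini-Hochberg over 12852 genes); the SE is the log2 fold change over the root of F. Levels are TMM-scaled CPM, except in the rule for members. The fit was tested on simulated counts with independent libraries and far fewer changed genes than these data. That does not show how the fit behaves here. Alternatives were DESeq2 1.42.0, limma 3.58.1 (voom), other scalings and filters, a replicate block, other level rules and left-out libraries. Same-numbered libraries deviated together (r = 0.525, 0.270, 0.457 and 0.171 for numbers 1 to 4, at most 0.0467 between numbers), and the numbers count as pairs on that ground. That comes from the data and not from the labels, and the reported fit has no block.

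Symbols and positions came from GENCODE M21, which matched 26881 of 26930 identifiers. The plan was to find KRAB boxes in RefSeq proteins; GENCODE coding sequences were translated in their place, and a gene counts as KRAB when at least 13 of 21 positions of an A-box pattern matched, a limit set after the scores were seen. With 18 positions 68 members remain, 10 higher and 15 lower. Transcripts were compared in windows of 75 bases for shared sequence.

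Genes are named by this rule: the 8 highest and 8 lowest called members whose groups do not overlap, the 5 with most CPM per kb, 11 well-known members, the 5 most significant KRAB members each way and 2 that did not pass, the 3 either side of the level limit, and members with an outlying library. The members and gene lists were chosen with earlier results of these data known. Of the marker lists not printed elsewhere, T and NK cells had 1 of 4 tested genes lower (7.74 to 29.7 CPM untreated, 4.90 to 10.4 after romidepsin), erythroid cells 1 of 1 higher (0.56 to 1.32 and 1.19 to 2.98), megakaryocytes 1 of 7 lower (444 to 957 and 437 to 888) and mast cells and basophils 1 of 7 lower (68.7 to 101 and 27.7 to 81.3).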

Additional observations from a re-analysis of the deposited data

Results flagged for a closer look

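In groups of 4 libraries a library was noted when its gap to the nearest other exceeded Dixon's 95% limit for that group's range. Chance alone notes about 1 in 20 groups; here it was 26 of 350 groups, or 7.43%. Untreated library 4 was noted above the other untreated ones in 11 members: Zfp516 at 175 CPM, Zfp871 at 100, Zfp638 at 82.3, Zfp664 at 57.9, Zfp609 at 50.8, Zfp180 at 32.7, Zfp568 at 26.9, Zfp526 at 20.1, Zfp41 at 15.8, Zfp799 at 12.4 and Zfp623 at 11.0 CPM. It was noted below them in Zfp639, at 27.8 against 29.5 to 29.8 CPM. A noted gap can be small where the other libraries are tight, as also in Zfp638, with 73.0 to 73.5 CPM in the others. Without untreated library 4 Zfp526 (log2 1.57, edgeR adjusted p = 0.0192), Zfp609 (0.95, 0.0133) and Zfp623 (0.69, 0.0348) passed the test, which they did not with it, at 0.163, 0.24 and 0.097.

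Romidepsin library 3 was noted above the other romidepsin libraries in 7 members: Zfp445 at 95.6 CPM, Zfp865 at 23.4, Zfp984 at 22, Zfp160 at 18.7, Zfp287 and Zfp949 each at 17.5 and Zfp994 at 13.9 CPM. In all of these but Zfp287 that made it the romidepsin library nearest to the untreated ones. Zfp287 was higher after romidepsin (log2 0.89, edgeR adjusted p = 0.0279), a call that ended with no count filter, without untreated 1, 2 or 3 or romidepsin 2 or 4, and without both number 3 libraries, at 0.0526 to 0.0844. Untreated library 1 stood below the other untreated ones in Zfp36l1, at 252 CPM, Zfp385a, at 89.0, and Zfp263, at 84.8, and above them in Zfp367, at 19.9, and Zfp28, at 9.35 CPM. Zfp771 in romidepsin library 2, at 10.8 CPM, and Zfp87 in romidepsin library 4, at 14.4 CPM, were the low values of their groups.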

How the results depend on the processing

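No called member changed sign in any of 17 alternative fits, and 11 of 26 higher and 20 of 45 lower members kept their call in all of them. Scaling by library size alone gave 40 higher and 26 lower members (KRAB 10 lower, no KRAB 22 higher and 16 lower), housekeeping scaling 24 lower (KRAB 8, no KRAB 16), and no count filter 15 higher (KRAB 7, no KRAB 8). Of all tested genes 30.24% were higher and 10.64% lower with library size, and 9.26% were lower with housekeeping scaling. With no count filter 9.4% of 26930 genes were higher. A level rule of 20 CPM gave 11 higher and 23 lower, and 10 CPM in untreated libraries 16 higher. Leaving out 1 library gave 13 to 29 higher and 27 to 52 lower members. For KRAB members these ranges were 6 to 14 and 10 to 21, and for the others 7 to 15 and 17 to 31. Over all tested genes the shares were 13.35% to 24.48% higher and 9.2% to 23.42% lower. The replicate block gave 25 higher and 43 lower members, where 21.16% of all tested genes were higher and 20.75% lower. In the reported fit those shares of all genes were 20.3% and 16.2%. Among members the block lost Zfp24, Zfp280d, Zfp523, Zfp626 and Zfp638, gained Zfp36 and Zfp984, and changed no other call. With both libraries numbered 3 left out 21 members were higher and 42 lower, where 20.11% of all tested genes were higher and 18.94% lower. Some members that did not pass turned sign. With library size alone and housekeeping scaling these were Zfp143 (0.16, 0.085), Zfp639 (0.13, 0.076), Zfp87 (0.16, 0.084), Zfp871 (0.26, 0.18) and Zfp949 (0.076, 0.014). With 1 library left out Zfp516 ranged from -0.43 to 0.0021, Zfp871 from -0.11 to 0.085 and Zfp568 from -0.16 to 0.49; Zfp516 and Zfp871 turned without untreated 4. Zfp568 also turned with DESeq2 size factors and DESeq2's Wald test (-0.016 each), with no count filter (-0.016) and with both number 3 libraries out (-0.090). Causes were not tested. The lowest count of a member in a library was 33.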
